A study of Mus musculus with 24 samples.

Results

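The genes described are the matrix metalloproteinases (Mmp), the secreted proteinases with thrombospondin repeats (Adamts) and the tissue inhibitors of metalloproteinases (Timp) of the mouse. All symbols made of Mmp and a number with an optional letter, of Adamts and a number, or of Timp1 to Timp4 were taken, whatever their values. These were 46 symbols, 23 Mmp, 19 Adamts and 4 Timp, and 45 of them were among the 22282 genes of the files. Mmp27 was not used here. A mean FPKM of at least 1 over the 24 libraries, which a gene needed to be tested, was reached by 34 of them, 17 Mmp, 13 Adamts and 4 Timp, among 14964 genes tested. FPKM are fragments per kilobase of transcript scaled to the size of the library, so levels of different genes can be set side by side per unit of length.

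The study converted amniotic cells to endothelial cells (ECs) with Ets factors and asked what Akt signalling and Sox17 add to the converted cells. All cells were from C57BL/6J mice, with 3 libraries in each of 8 groups. The study's methods give the source of the amniotic cells as wild-type or tdTomato reporter mice on a C57BL/6 background, without saying which cultures were which. MACs were cultured cells of the amniotic fluid of mid-gestation embryos, and Akt-MACs were MACs with a lentivirus for a myristoylated Akt that is constitutively active. RACVECs were MACs transduced with lentiviruses for Etv2, Erg and Fli1, Akt-RACVECs carried the myristoylated Akt in addition, and Sox17-RACVECs carried mouse Sox17 in addition to the 3 Ets factors. Akt-LECs and Akt-liver ECs were lung and liver ECs that were cultured after transduction with the same Akt, and LSECs were liver ECs sorted directly by FACS with no culture, after injection of the mice with labelled isolectin and an antibody to VE-cadherin. Per the study's methods, the lung and liver ECs were taken with CD31 beads, transduced, and sorted again for VE-cadherin and CD31 after their culture. The same methods give AmnioMAX as the medium of amniotic cells before conversion. Converting cells and the lung and liver ECs were kept in an EC medium that held an inhibitor of TGFβ signalling. The Ets factors and Akt were expressed from the PGK promoter, and Sox17-RACVECs were selected with puromycin. A replicate of MACs was a separately isolated culture of embryos of both sexes. Akt-LECs and Akt-liver ECs also carry the culture and the Akt that LSECs lack, and the stains used for sorting also differed, so culture, Akt and the way of sorting cannot be told apart in the comparison with LSECs. MACs lacked the Akt, the EC medium and the sorting of the cultured ECs. Cell type and these factors therefore cannot be told apart in MACs against cultured ECs. In RACVECs against MACs, the Ets factors and the medium cannot be told apart either. The medium of the Akt-MACs is not stated. For the groups other than MACs the labels do not say whether libraries were separate isolates, while the study's figure legends speak of individual isolates. Where libraries were not separate isolates, p-values cover only the spread between these libraries.

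Mmp proteins are zinc proteinases that are made as inactive proenzymes, cut once their propeptide is removed, and together digest most proteins of the extracellular matrix. Adamts proteinases cleave large proteoglycans such as versican and aggrecan or trim procollagens, and Timp proteins occupy the active site of Mmp proteins in a tight complex. In vessels these genes are known for the opening of the basement membrane when a sprout leaves its parent vessel, and for the balance of proteinase and inhibitor that holds a formed tube together.

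A cluster on chromosome 9 holds 10 of the 23 Mmp genes within 427072 bases of mm9 (chromosome 9 from 7272514 to 7699585), in the order Mmp13, Mmp12, Mmp1b, Mmp3, Mmp1a, Mmp10, Mmp8, Mmp27, Mmp20 and Mmp7. Mmp3 and Mmp13, which ranged from 0 to 6218 and from 0 to 3165 FPKM over the 24 libraries, lie here, and the stretches just upstream of 5 of the cluster's genes are therefore shown. RefSeq promoters of build GRCm38.p6 were matched by symbol for 32 of the 46 genes. The stretches shown were then found at a single place each on chromosome 9 of mm9, the only chromosome searched. The 250 bases upstream of the gene start were searched on both strands for TGAGTCA, the letters that AP-1 (Fos and Jun) is known to bind. They were in 7 of the 10 promoters of the cluster (Mmp1a, Mmp1b, Mmp3, Mmp7, Mmp10, Mmp12 and Mmp13), in 0 of the 22 other promoters of these families, and in 5.16% of the promoters of all 27025 symbols. The capitals mark these letters, read 5′ to 3′ on the strand of the gene.
Mmp13, chr9:7272459-7272505, plus strand: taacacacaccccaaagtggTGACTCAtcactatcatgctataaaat
Mmp1b, chr9:7388093-7388139, minus strand: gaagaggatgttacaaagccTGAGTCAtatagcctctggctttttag
Mmp3, chr9:7445756-7445802, plus strand: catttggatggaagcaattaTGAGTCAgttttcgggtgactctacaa
Mmp1a, chr9:7464048-7464094, plus strand: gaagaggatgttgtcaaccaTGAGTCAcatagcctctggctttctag
Mmp10, chr9:7502259-7502305, plus strand: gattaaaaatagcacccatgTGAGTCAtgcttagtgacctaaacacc

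The letters began between 35 bases (Mmp13) and 73 bases (Mmp1a and Mmp10) upstream of the gene start in the mm9 annotation. An Ets motif (AGGAAG or CGGAAG, both strands) was in 15 of the 32 promoters and in 42.5% of all promoters, and a Sox motif (AACAAT, both strands) was in 3 of the 32 (Mmp7, Mmp25 and Timp1) and in 10.9% of all. The stretches of Mmp1a and Mmp1b shown above are alike in most bases, so the AP-1 matches of the cluster are not independent counts. All these matches are a description of the sequence, and binding at these places was not measured here.

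The FPKM of a library summed to 1689486 to 2317294 with 12356 to 14985 genes above 0, and 0 pairs of libraries were identical. Fragment numbers were not given in the sources used here and depth is therefore unknown, so that a gene listed at 0 has no limit of detection. The summed level of 5 endothelial markers was between 8.11 and 26.5 in MACs, at most 50.02 in Akt-MACs and between 1205 and 12873 in the 6 groups labelled as endothelial. The summed level of 6 mesenchymal markers was between 737 and 8939 in MACs, Akt-MACs and RACVECs, between 0.31 and 308 in Akt-RACVECs and Sox17-RACVECs, between 1883 and 2318 in Akt-liver ECs, and 4109 in Akt-LEC 1. Thy1 alone held 2212 and 2316 of this sum in Akt-liver EC 2 and 3. Of 6 macrophage markers, 5 were in the files, and their summed level was 103, 4966 and 14366 in the Akt-MACs and between 7257 and 12243 in the LSECs, against at most 179 in the other groups. Hepatocyte markers summed to between 1851 and 10541 in the LSECs and to at most 43.2 elsewhere. Neutrophil markers were highest in Akt-MAC 1 (938, nearly all S100a8) and were 0 in the Sox17-RACVECs, stellate cell markers were at most 453 and epithelial markers at most 169.9 outside 1 Akt-liver EC library with 1270.5. In such bulk libraries, fewer cells of a type and less RNA per cell cannot be told apart.

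In the plot of all tested genes by library, a few genes carried most of the signal. The Mmp gene with the highest FPKM was Mmp14 in 10 libraries, Mmp2 in 8, Mmp3 in 5 and Mmp13 in 1. Adamts1 led the Adamts genes in 19 of the 24 libraries, Adamts4 in 4 and Adamts5 in 1. The summed FPKM of the Mmp genes was between 4142 and 10524 in MACs and between 569 and 581 in LSECs. Of the Timp genes, Timp2 had the highest FPKM in 15 libraries, Timp3 in 6 and Timp1 in 3.

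**Figure D1:**
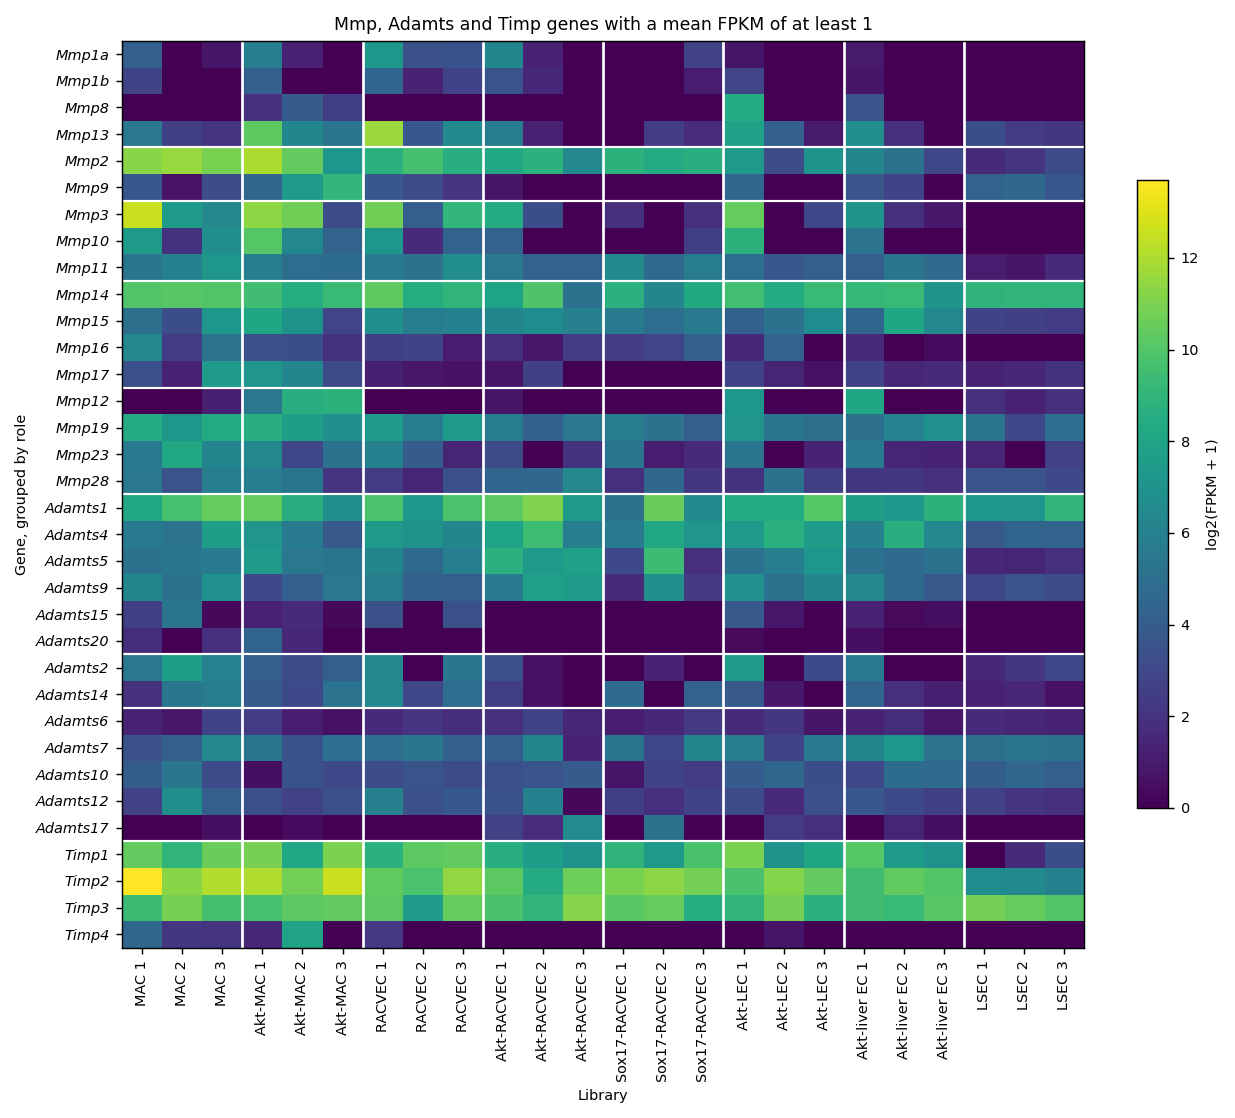
Log2(FPKM + 1) of the 34 tested Mmp, Adamts and Timp genes (rows, grouped by role) in the 24 libraries (columns, 3 per group). Timp2, Timp3, Mmp14 and Adamts1 were high in most libraries, whereas Mmp3, Mmp13 and Mmp10 of the chromosome 9 cluster varied widely within groups and were low in Sox17-RACVECs and LSECs.

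The comparisons used limma on values of log2(FPKM + 1). A gene was called at a Benjamini-Hochberg adjusted p below 0.05, over all genes tested, and a log2 fold change past 1 or -1, and the percentages that follow give the share of all 14964 genes called in the same way. Amniotic cells and cultured tissue ECs differed in 6 of the 34 genes, all higher in MACs (7.51% of all genes were higher and 7.30% lower). These were Mmp2, Mmp11, Mmp16, Mmp19, Mmp23 and Timp2. Akt-liver ECs exceeded LSECs in 6 genes (14.1% of all genes higher, 12.9% lower), which were Timp1, Timp2, Mmp11, Mmp15, Adamts4 and Adamts5, and in 0 genes were they lower. In the converted cells with Akt, 1 gene was higher (Adamts17; 6.15% of all genes) and 5 were lower (Mmp9, Mmp12, Mmp17, Mmp19 and Timp2; 13.4% of all genes) than in Akt-MACs. Akt-MACs were above MACs in Mmp12 alone among these genes (2.59% of all genes higher, 0.214% lower). Single libraries moved these counts. The first was 2 without MAC 1 or MAC 3 and 11 without Akt-LEC 1 and Akt-liver EC 1 together, the second was 3 without Akt-liver EC 2, and the third was 3 without Akt-MAC 1 or Akt-MAC 2 and 3 without Akt-MAC 2 and 3 together. For Akt-MACs against MACs it was 0 without MAC 1, MAC 2, Akt-MAC 2 or Akt-MAC 3 and 2 without Akt-MAC 1. Of the 6 mesenchymal markers, 3 (Col1a1, Col3a1 and Pdgfra) were also higher in MACs than in cultured ECs, and all 5 macrophage and all 5 hepatocyte markers were lower in Akt-liver ECs than in the sorted LSECs. The summed mesenchymal markers were 1883 to 2318 FPKM in the Akt-liver ECs and 35.2 to 109.5 in the LSECs, and Thy1, 1 of the 6, was called higher in the Akt-liver ECs. Thy1 held nearly all of this sum in Akt-liver EC 2 and 3 (2212 and 2316), where each other marker was at most 5.66. In Akt-liver EC 1, Thy1 was 655 beside 556 of Col1a1. The part of these markers in the calls was not tested.

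For the other comparisons limma called 0 of the 34 genes. They were RACVECs against MACs (2.71% of all genes called in either direction), Akt-RACVECs against RACVECs (0.261%), Sox17-RACVECs against RACVECs (0.00668%), RACVECs against Akt-LECs (0.261%), Akt-LECs against Akt-liver ECs (0.0134%), and the difference between the Akt effect in RACVECs and that in MACs (0.00668% higher and 0.0936% lower). Past the same fold and at an unadjusted p below 0.05 there were 4, 9, 7, 4, 0 and 7 of the 34 genes in this order. The criterion of the study's methods was an unadjusted p below 0.05 on FPKM and a log2 ratio of averaged FPKM past 1 or -1. As computed here, it took 1 gene (Mmp2, lower in RACVECs than in MACs) in the first of them and 0 in the next 4. The study itself lists Mmp3 among the genes with the strongest reduction in Sox17-RACVECs, which the computation here did not take. The criterion was not computed for the last. Without MAC 2, limma called 2 genes in the first, and without Akt-MAC 1 it called 1 in the last. Over all 8 groups, the F test of limma called 13 of the 34 genes, and 54.0% of all genes tested. They were Timp1, Timp2, Mmp2, Mmp3, Mmp9, Mmp11, Mmp12, Mmp16, Mmp17, Mmp19, Adamts4, Adamts5 and Adamts9. With any single library omitted, it called between 9 and 16 of the 34.

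The median log2 fold change of the 34 genes was 1.30 in MACs against cultured ECs, 0.83 in Akt-liver ECs against LSECs, -1.27 in Akt-RACVECs against Akt-MACs, -0.85 in Akt-RACVECs against RACVECs and -1.02 in Sox17-RACVECs against RACVECs. The medians of all genes tested in the same comparisons were -0.03, 0.08, -0.09, 0 and -0.02. In the other comparisons, the median of the 34 genes was -0.44 in RACVECs against MACs (0 over all genes), -0.33 in Akt-MACs against MACs (0.09), 0.36 in RACVECs against Akt-LECs (0), 0.49 in Akt-LECs against Akt-liver ECs (-0.03) and -0.62 for the Akt effect in RACVECs minus that in MACs (-0.12). Averaged over a group, the median shift of a library against the mean over all libraries ran from -0.268 to -0.108 on the log2 scale, a difference of at most 0.159, and scaling each library by its shift reversed no called direction.

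**Figure D2:**
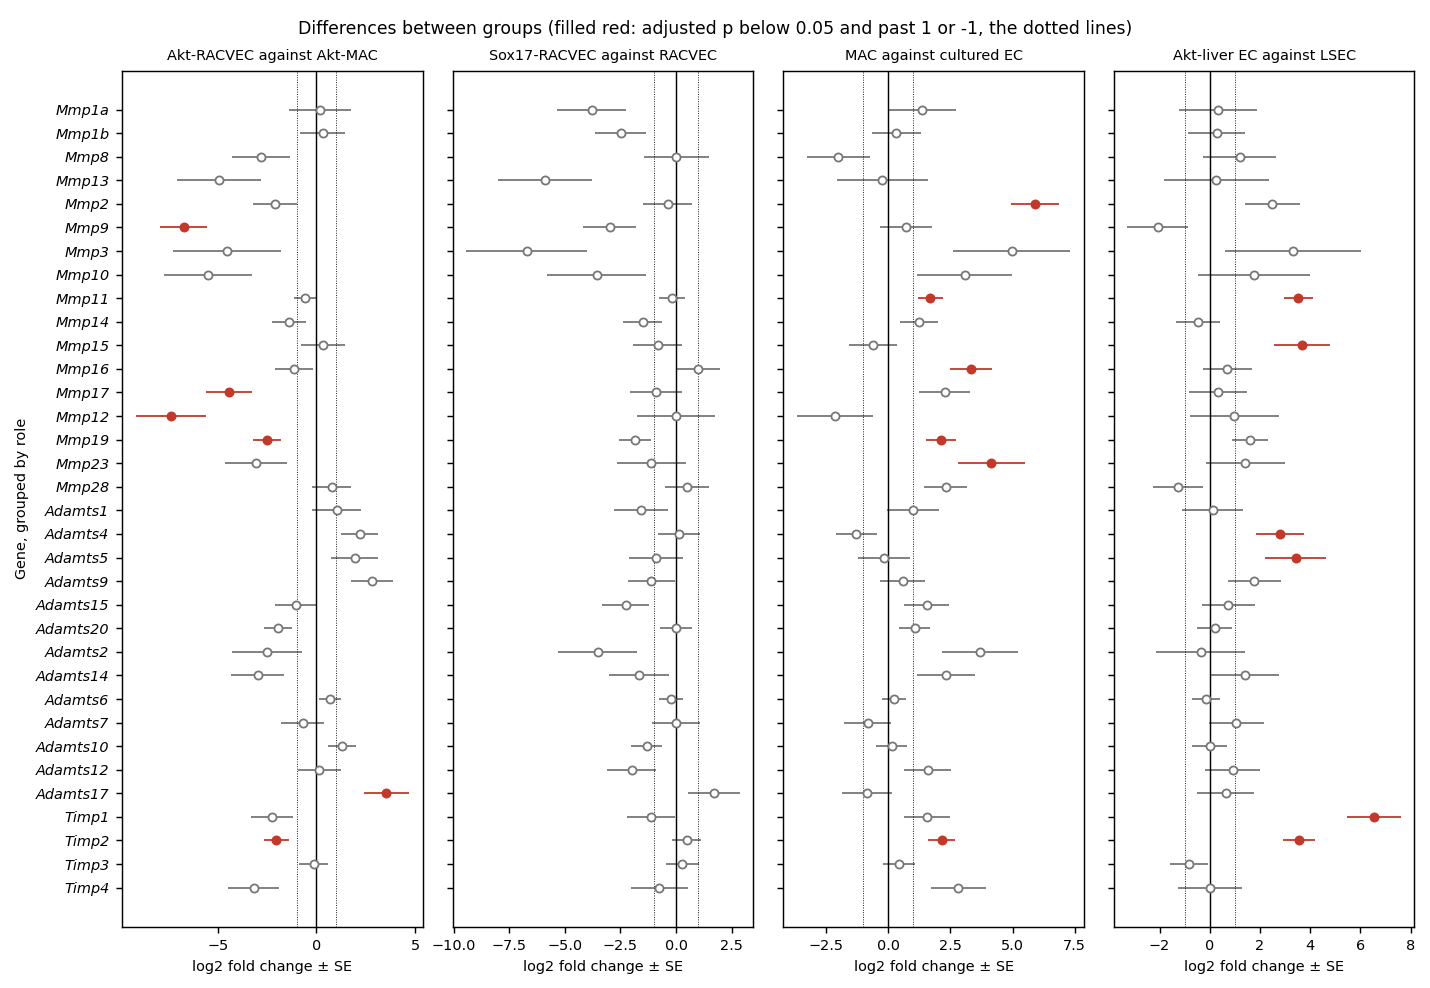
Log2 fold change with its standard error for the 34 tested genes in 4 comparisons of 3 libraries per group (6 cultured tissue EC libraries against the MACs). Red filled points were called, 6 in each comparison except Sox17-RACVECs against RACVECs, with 0, where 24 of the 34 lay below 0.

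Among the collagenases, which cut fibrillar collagen, Mmp13 had the highest level. The FPKM of Mmp13 (chromosome 9 from 7272514 to 7283333) was 42.8, 4.96 and 3.33 in the MACs, 1234, 77.4 and 36.9 in the Akt-MACs and 3165, 12.7 and 91.9 in the RACVECs. It was 52.5, 1.37 and 0 in the Akt-RACVECs and 0, 4.71 and 2.39 in the Sox17-RACVECs. In lung and liver ECs it was 228, 17.4 and 0.96 in the Akt-LECs, 110.3, 2.72 and 0 in the Akt-liver ECs and 8.74, 4.44 and 3.49 in the LSECs. All 3 Sox17-RACVEC libraries were thus below all 3 RACVEC libraries, while the RACVECs themselves spanned from 12.7 to 3165. The log2 fold change of -5.89 ± 2.11 (SE, adjusted p = 0.579) was not called.

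Mmp1a and Mmp1b, the mouse counterparts of human interstitial collagenase, were low by comparison, with ranges from 0 to 152 and from 0 to 21.2. Both were listed above 0 in all 3 RACVECs and at 0 in 2 of 3 Sox17-RACVECs and in all LSECs. The pair shares 160 stretches of 51 bases, the read length, which is 8.11% of those of Mmp1a and 11.4% of those of Mmp1b, so their reads can be split between them. The neutrophil collagenase Mmp8 was above 0 in 5 libraries, the 3 Akt-MACs (2.83, 14.8 and 4.87), Akt-LEC 1 (344) and Akt-liver EC 1 (10.7). The neutrophil marker S100a8 was 306 in Akt-LEC 1, 13 in Akt-liver EC 1 and 0 in the other libraries of both groups, and was 934, 33.7 and 26.8 in the Akt-MACs. It was also above 0 in all 3 RACVECs and all 3 LSECs, which had no Mmp8. The same held for Akt-RACVEC 1 and 2 (612 and 79.9) and MAC 1 and 3 (70.7 and 6.24). Of the other neutrophil markers, S100a9 was 0 in every Akt-LEC and Akt-liver EC and 3.92, 0 and 0 in the Akt-MACs. Elane and Ngp were 0 in every library. The part of these markers was not tested. Akt-LEC 1 and Akt-liver EC 1 also held the highest Mmp3, Mmp10, Mmp12 and Mmp13 of their groups.

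The gelatinases, which digest denatured collagen and collagen IV of basement membranes, were high in different groups. Mmp2 (chromosome 8 from 95351227 to 95377316) had the highest mean FPKM of the Mmp genes over the 24 libraries. Its FPKM was 2449, 3019 and 1948 in the MACs, 4096, 1347 and 148 in the Akt-MACs and 425, 796 and 378 in the RACVECs. It was 287, 420.3 and 86.1 in the Akt-RACVECs and 440.5, 332 and 398 in the Sox17-RACVECs. The tissue ECs were lower, with 167, 8.04 and 133 in the Akt-LECs, 78.3, 34.4 and 6.77 in the Akt-liver ECs and 2.22, 3.34 and 7.83 in the LSECs. Every MAC library was above every cultured tissue EC library, a log2 fold change of 5.91 ± 0.95 (SE, adjusted p = 0.000472), and this call was kept under each of the 19 alternatives. The MACs were also above all 3 RACVECs, by a log2 fold change of RACVECs against MACs of -2.27 ± 1.10 (SE, adjusted p = 0.263) that was not called. All RACVECs lay above all Akt-LECs, with a log2 difference of 3.10 ± 1.10 (SE, adjusted p = 0.264) that was not called either. Sox17-RACVEC 1 and 3 lay within the range of the RACVECs and Sox17-RACVEC 2 below it, and the log2 fold change between these groups was -0.38 ± 1.10 (SE, adjusted p = 1).

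Mmp9 (chromosome 2 from 164766280 to 164781350), the other gelatinase, which macrophages and neutrophils are known to release, was low in most libraries. Its FPKM was 12, 0.64 and 8.39 in the MACs, 21.6, 169 and 536 in the Akt-MACs, 12.4, 7.97 and 3.21 in the RACVECs, 0.7, 0 and 0 in the Akt-RACVECs and 0 in all 3 Sox17-RACVECs. The values of the tissue ECs were 23.8, 0 and 0 in the Akt-LECs, 11.4, 5.82 and 0 in the Akt-liver ECs and 19.6, 23.1 and 11.6 in the LSECs. Akt-MACs were above MACs (10.7% of all genes) and Akt-RACVECs were below RACVECs (9.15%) in every library. Akt-RACVECs were lower than Akt-MACs by a log2 fold change of -6.74 ± 1.21 (SE, adjusted p = 0.00112), a call that held without any single library. Against MACs, the log2 fold change of Akt-MACs was 4.45 ± 1.21 (SE, adjusted p = 0.0548), just short of a call, and it was 5.69 (adjusted p = 0.00775) without Akt-MAC 1. The difference between both Akt effects was -7.19 ± 1.72 (SE, adjusted p = 0.102) on the log2 scale, and -8.43 (adjusted p = 0.00628) without Akt-MAC 1.

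Mmp12 (chromosome 9 from 7344381 to 7369499), the macrophage elastase, was listed at 0, 0 and 1.31 in the MACs and at 44.3, 400.5 and 438 in the Akt-MACs. It was 0 in all RACVECs and Sox17-RACVECs and 0.7, 0 and 0 in the Akt-RACVECs. Among the tissue ECs it was 145, 0 and 0 in the Akt-LECs, 262, 0 and 0 in the Akt-liver ECs and 2.7, 1.62 and 2.65 in the LSECs, so that 1 library of each cultured group was high and the other two were at 0. Here, the log2 fold change of Akt-MACs against MACs was 7.24 ± 1.77 (SE, adjusted p = 0.0323), and the call was lost without MAC 1, MAC 2, Akt-MAC 2 or Akt-MAC 3 (adjusted p = 0.0909, 0.116, 0.153 and 0.128). The log2 fold change of Akt-RACVECs against Akt-MACs was -7.39 ± 1.77 (SE, adjusted p = 0.00692).

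The macrophage markers moved with both genes. Of the 5 markers, Adgre1, Csf1r and Cd5l were called higher in Akt-MACs than in MACs and lower in Akt-RACVECs than in Akt-MACs, and each was lowest in Akt-MAC 1 and highest in Akt-MAC 3, with 56.6 and 4105 for Adgre1. Mmp12 and Mmp9 were also lowest in Akt-MAC 1 and highest in Akt-MAC 3. Akt-LEC 1 and Akt-liver EC 1, from groups sorted for VE-cadherin and CD31 after culture, had markers that summed to 84.1 and 179 and held 145 and 262 of Mmp12, whereas the LSECs with 7257 to 12243 held at most 2.7. The Kupffer cell markers Clec4f and Timd4 were between 245 and 4942 in the LSECs and at most 1.68 in the Akt-MACs. With Akt-MAC 2 and 3 left out together, the adjusted p of Akt-RACVECs against Akt-MACs was 0.124 for Mmp9 and 0.252 for Mmp12, and the single Akt-MAC library left was assumed to vary like the other groups. The part of other cells in these differences was not tested.

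**Figure D3:**
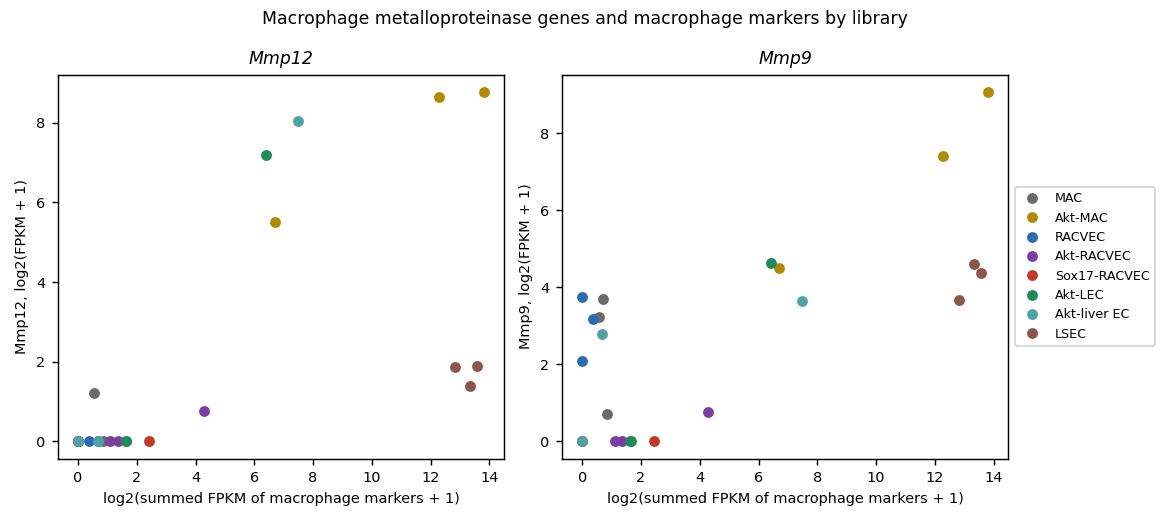
Mmp12 (left) and Mmp9 (right) against the summed FPKM of 5 macrophage markers, both as log2 of the value plus 1, with 1 point per library and colours for the 8 groups. Akt-MAC 2 and 3 had the highest Mmp12 and Mmp9 of the 24 libraries, and the 3 LSECs combined high markers with an Mmp12 of at most 2.7 FPKM.

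The stromelysins, which cut proteoglycans and activate other proenzymes, were led by Mmp3. The FPKM of Mmp3 (chromosome 9 from 7445822 to 7455972) was 6218, 184 and 86 in the MACs, 2642, 1709 and 8.06 in the Akt-MACs and 1699, 16.6 and 529.9 in the RACVECs. It was 342, 8.6 and 0 in the Akt-RACVECs and 2.62, 0 and 2.76 in the Sox17-RACVECs. In the tissue ECs it was 1429, 0 and 6.87 in the Akt-LECs, 137, 2.72 and 0.92 in the Akt-liver ECs and 0 in all LSECs. The MACs thus ran from 86 to 6218, and the MACs, Akt-MACs, RACVECs and Akt-LECs all overlapped. All Sox17-RACVECs were below all RACVECs, with a log2 fold change of -6.72 ± 2.72 (SE, adjusted p = 0.652) that was not called. The study lists Mmp3 among the genes with the strongest reduction in Sox17-RACVECs. The F test over 8 groups gave an adjusted p of 0.0496 for Mmp3, a call that was lost in 17 of the 24 fits that left out 1 library. Mmp10, its neighbour in sequence, reached 1091 in Akt-MAC 1 and was 0 in 11 libraries, and it shares 137 stretches of 51 bases with Mmp3 (8.2% of those of Mmp10).

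Over the cluster, the summed FPKM of the 9 genes in the files was 6459, 192 and 197 in the MACs, 5090, 2283 and 507 in the Akt-MACs and 5181, 42.6 and 657 in the RACVECs. It was 500.2, 18 and 0 in the Akt-RACVECs and was 2.62, 4.71 and 16.7 in the Sox17-RACVECs. The Akt-LECs had 2602, 17.4 and 7.83, the Akt-liver ECs 559, 5.44 and 0.92, and the LSECs 11.4, 6.06 and 6.14. Sox17-RACVECs and LSECs were low in every library, and the MAC-derived cells without Sox17 had between 0 and 6459 and overlapped between groups except that every Akt-MAC was above every Akt-RACVEC. Between them, RACVECs and Sox17-RACVECs did not overlap in this sum.

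**Figure D4:**
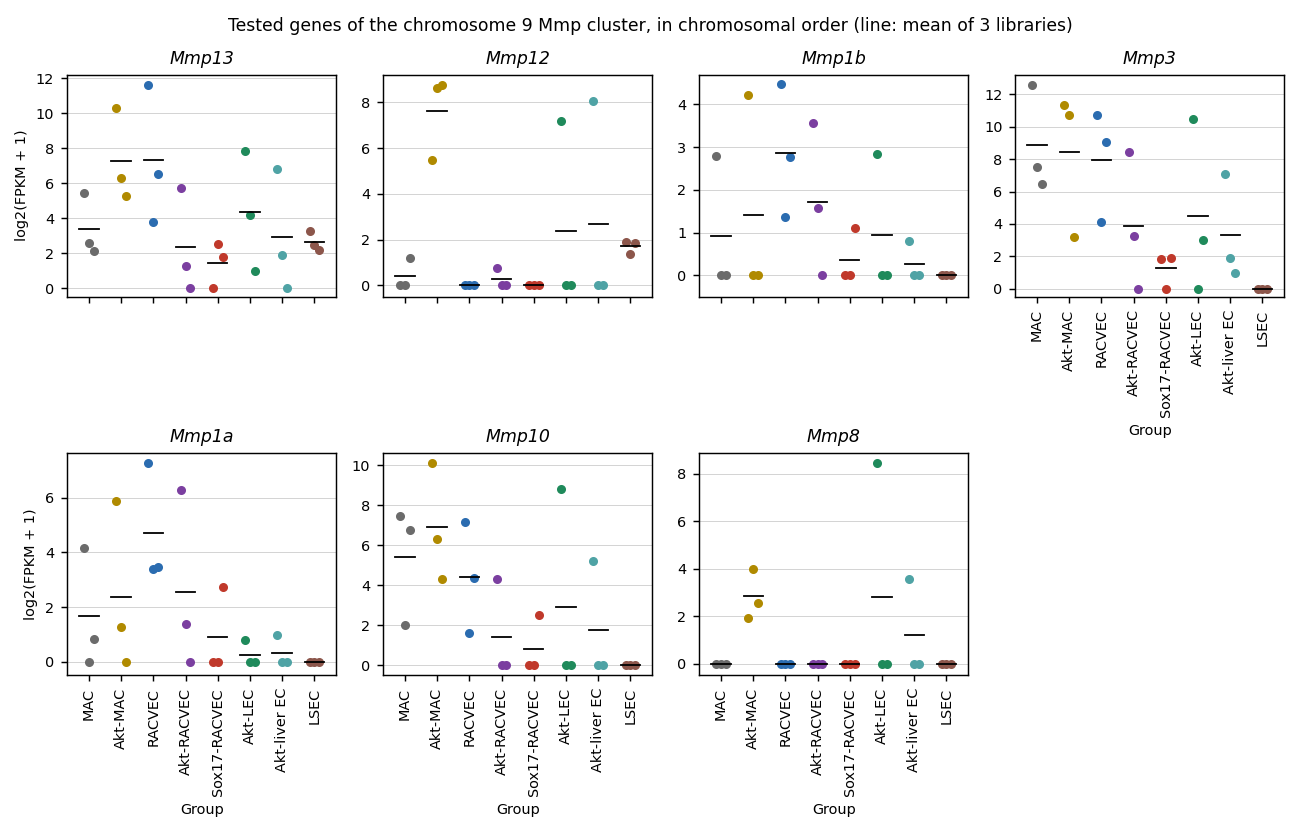
Log2(FPKM + 1) of the 7 tested genes of the chromosome 9 cluster by group, with 1 point per library and a line at the mean of the 3 libraries, in chromosomal order. Mmp13, Mmp1b, Mmp3 and Mmp1a lay lower in every Sox17-RACVEC than in every RACVEC library. Mmp8 was above 0 only in the 3 Akt-MACs and in the first Akt-LEC and Akt-liver EC library, and Mmp12 was above 10 FPKM only in the same 5 libraries.

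Of the 34 genes, 10 lay lower in every Sox17-RACVEC than in every RACVEC library (6.55% of all genes did so) and 0 lay higher (4.05%). The 10 were Mmp13, Mmp1a, Mmp1b and Mmp3 of the cluster, with Mmp9, Mmp15, Mmp17, Mmp19, Adamts10 and Adamts12. Their log2 fold changes were between -6.72 for Mmp3 and -0.82 for Mmp15, and none was called. All 6 mesenchymal markers also had log2 fold changes below 0, with summed levels of 737 to 6147 FPKM in RACVECs and 4.93 to 308 in Sox17-RACVECs, and 0 of them were called. Their part was not tested. Akt-RACVECs were above RACVECs in every library for 3 genes, Mmp28, Adamts5 and Adamts17 (10.6% of all genes), and below for 3, Mmp9, Adamts14 and Timp1 (9.15%). RACVECs were below MACs in every library for Mmp2, Mmp17 and Mmp28 (10.5% of all genes) and above for 0 genes (11.4%).

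Mmp11, the stromelysin that is released in active form, was lowest in the LSECs. Its FPKM (chromosome 10 from 75385967 to 75400678) was 39, 64.3 and 148 in the MACs, 57.9, 30 and 28.1 in the Akt-MACs, 51.8, 33.7 and 105 in the RACVECs, 41.4, 18.4 and 18.4 in the Akt-RACVECs and 93.6, 24.4 and 54.9 in the Sox17-RACVECs. In lung and liver ECs it was 29.4, 12.2 and 16.7 in the Akt-LECs, 16, 39.1 and 25.8 in the Akt-liver ECs and 1.07, 0.78 and 2.22 in the LSECs. The LSECs were below all 21 other libraries. Akt-liver ECs exceeded LSECs by a log2 fold change of 3.53 ± 0.57 (SE, adjusted p = 0.000115), which held without any single library. MACs exceeded cultured ECs by 1.70 ± 0.49 (SE, adjusted p = 0.0218), although MAC 1 (39) lay just below Akt-liver EC 2 (39.1). This call was lost without MAC 3 (adjusted p = 0.142). Mmp7, matrilysin, was above 0 in Akt-RACVEC 2 only, at 4.45.

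Of the membrane-type genes, whose proteins stay at the cell surface, Mmp14 had the highest level. Mmp14 (chromosome 14 from 55050441 to 55060095), which activates the proenzyme of Mmp2, had an FPKM of 1007, 1128 and 994 in the MACs, 723, 351 and 602 in the Akt-MACs, 1244, 352 and 499 in the RACVECs, 243, 975 and 34.6 in the Akt-RACVECs and 412, 74.3 and 313 in the Sox17-RACVECs. The values of the tissue ECs were 760.2, 341 and 593 in the Akt-LECs, 554, 624 and 137 in the Akt-liver ECs and 483, 522 and 488 in the LSECs. It was called in none of the comparisons, and it made up 84.0%, 89.9% and 85.8% of the summed Mmp FPKM in the LSECs. Here, the log2 fold change of Akt-liver ECs against LSECs was -0.46 with a standard error of 0.87.

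Mmp15 (chromosome 8 from 97876168 to 97898193) had 32, 8.69 and 154 in the MACs, 262, 127 and 6.33 in the Akt-MACs, 117, 53.3 and 64.8 in the RACVECs, 77.1, 98.7 and 60.6 in the Akt-RACVECs and 47.8, 29.9 and 49.6 in the Sox17-RACVECs. It had 18.1, 34.3 and 102 in the Akt-LECs, 21, 263 and 78.5 in the Akt-liver ECs and 5.92, 4.99 and 4.46 in the LSECs. The log2 fold change of Akt-liver ECs against LSECs was 3.66 ± 1.11 (SE, adjusted p = 0.0155), and the adjusted p was 0.0865 without Akt-liver EC 2, the highest library. Mmp16 (chromosome 4 from 17780040 to 18046292) had 80.1, 4.42 and 35.8 in the MACs, 9.53, 8.79 and 2.96 in the Akt-MACs, 4.96, 5.95 and 1.1 in the RACVECs, 2.6, 0.85 and 4.71 in the Akt-RACVECs and 4.22, 6.21 and 17 in the Sox17-RACVECs. It had 2, 19.5 and 0 in the Akt-LECs, 2.26, 0 and 0.32 in the Akt-liver ECs and 0 in all LSECs. MACs exceeded cultured ECs by a log2 fold change of 3.32 ± 0.85 (SE, adjusted p = 0.0114) although Akt-LEC 2 lay above MAC 2, and the adjusted p was 0.0928 without MAC 1 and 0.0503 without MAC 3.

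Mmp17 (chromosome 5 from 130090089 to 130114086) was highest in amniotic cells, with 9.06, 1.39 and 188 in the MACs and 141, 77.4 and 7.97 in the Akt-MACs. It was 1.31, 0.83 and 0.59 in the RACVECs, 0.71, 4.99 and 0 in the Akt-RACVECs and 0 in all Sox17-RACVECs. Among the tissue ECs it was 5.73, 1.69 and 0.58 in the Akt-LECs, 6, 1.73 and 2.07 in the Akt-liver ECs and 1.52, 1.94 and 3.03 in the LSECs. All Akt-RACVECs were below all Akt-MACs, a log2 fold change of -4.42 ± 1.17 (SE, adjusted p = 0.0121) that was lost without Akt-MAC 1 or Akt-MAC 2 (adjusted p = 0.0551 and 0.055). Without Akt, RACVECs were below MACs in every library too, and the log2 fold change of -3.13 ± 1.17 (SE, adjusted p = 0.149) was called only without MAC 2, as was that of Mmp16 (-4.53 and -3.62, adjusted p = 0.0246 and 0.034). Mmp24 and Mmp25 were not tested and stayed at or below 3.25.

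Mmp19 and Mmp23 were called as well. Mmp19 (chromosome 10 from 128228009 to 128237880), a secreted basement membrane proteinase, had 345, 153 and 336 in the MACs, 366, 202 and 116 in the Akt-MACs, 168, 55.2 and 165 in the RACVECs, 55.8, 18.1 and 41.9 in the Akt-RACVECs and 52.5, 34.7 and 17 in the Sox17-RACVECs. It had 138, 37.1 and 31.7 in the Akt-LECs, 32.3, 66.1 and 120.3 in the Akt-liver ECs and 37, 6.83 and 30.9 in the LSECs. Its levels in Akt-RACVECs and Sox17-RACVECs were in the range of the tissue ECs and below those of the Akt-MACs and RACVECs, except that RACVEC 2 lay just below Akt-RACVEC 1. Here, the log2 fold change was -2.52 ± 0.72 (SE, adjusted p = 0.0176) in Akt-RACVECs against Akt-MACs and 2.12 ± 0.62 (SE, adjusted p = 0.0229) in MACs against cultured ECs. The first was lost without Akt-MAC 1, Akt-MAC 2 or Akt-RACVEC 2 (adjusted p = 0.0717, 0.0533 and 0.0836), and the second without MAC 1 or MAC 3 (0.0984 and 0.0835). Exons of the gene 1110012D08Rik on the other strand cover 23.1% of the exon bases of Mmp19, and the library kit does not mark the strand.

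Mmp23 (chromosome 4 from 155024764 to 155027493) had 47.2, 294 and 70.7 in the MACs, 81.9, 6.56 and 33.3 in the Akt-MACs, 62.8, 14.6 and 1.65 in the RACVECs, 7.77, 0 and 3.08 in the Akt-RACVECs and 37.8, 1.05 and 2.26 in the Sox17-RACVECs. It had 38, 0 and 1.53 in the Akt-LECs, 47.9, 1.66 and 1.56 in the Akt-liver ECs and 1.69, 0 and 5.44 in the LSECs. MACs exceeded cultured ECs by a log2 fold change of 4.15 ± 1.35 (SE, adjusted p = 0.0374), with Akt-liver EC 1 above MAC 1, and the call was lost without any 1 of 7 of the 9 libraries compared (adjusted p from 0.0665 without MAC 1 to 0.146 without MAC 2), all but Akt-LEC 1 and Akt-liver EC 1. Mmp28, epilysin, was between 1.68 and 84.9 and was called nowhere. Mmp20, the proteinase of tooth enamel, and Mmp21 were listed at 0 in all 24 libraries.

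The Adamts genes that cleave hyalectans, the family of versican and aggrecan, were led by Adamts1. Adamts1 (chromosome 16 from 85794072 to 85803358) had 285, 824 and 1399.9 in the MACs, 1393, 368 and 107 in the Akt-MACs, 903, 157 and 911 in the RACVECs, 1232, 2098 and 179 in the Akt-RACVECs and 35.3, 1489 and 91.8 in the Sox17-RACVECs. It had 337, 339 and 1066 in the Akt-LECs, 205, 155 and 440.1 in the Akt-liver ECs and 152, 140.1 and 520.2 in the LSECs. Within the Sox17-RACVECs alone it ran from 35.3 to 1489, and no comparison called it.

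Adamts4 (chromosome 1 from 173180552 to 173190768), an aggrecanase, had 46.3, 36.1 and 203 in the MACs, 140.2, 51.8 and 13.3 in the Akt-MACs, 160.3, 128 and 74.8 in the RACVECs, 245, 698 and 57.5 in the Akt-RACVECs and 50.8, 287 and 142 in the Sox17-RACVECs. It had 166, 411 and 189.7 in the Akt-LECs, 60.7, 405 and 82.9 in the Akt-liver ECs and 13.1, 20.2 and 19.6 in the LSECs. Adamts5 (chromosome 16 from 85858415 to 85901370), the other main aggrecanase, had 33.2, 39.9 and 49.8 in the MACs, 170.2, 41.6 and 38.5 in the Akt-MACs, 77, 25.3 and 58.2 in the RACVECs, 415, 165 and 229 in the Akt-RACVECs and 7, 667 and 2.63 in the Sox17-RACVECs. It had 34.3, 57.4 and 147 in the Akt-LECs, 33.9, 26.6 and 35 in the Akt-liver ECs and 1.9, 1.64 and 2.63 in the LSECs. Both genes were lower in each LSEC than in each cultured liver library, with log2 fold changes of 2.80 ± 0.95 (SE, adjusted p = 0.0283) for Adamts4 and 3.43 ± 1.21 (SE, adjusted p = 0.0353) for Adamts5. The call of Adamts4 was lost without Akt-liver EC 2 or any LSEC library (adjusted p from 0.055 to 0.148), and that of Adamts5 without any 1 of the 6 libraries (from 0.0643 to 0.0847).

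Sox17-RACVEC 2 stood apart among these genes, with 1489 of Adamts1, 287 of Adamts4, 667 of Adamts5 and 113 of Adamts9 against at most 91.8, 142, 7 and 3.75 in the other two Sox17-RACVECs. It was also the only Sox17-RACVEC with Adamts17 above 0. Its 5 endothelial markers summed to 10276 FPKM, against 3009 and 3123 in the other two, with 5144 of Pecam1 and 231 of Tek against at most 714 and 5.17. Its mesenchymal markers summed to 4.93, against 239 and 308 in the others, and the part of either was not tested. Adamts9 (chromosome 6 from 92722693 to 92893486), which cleaves versican and aggrecan, had 76.3, 35.4 and 122 in the MACs, 7.19, 15.9 and 42 in the Akt-MACs, 54.7, 17.9 and 15.8 in the RACVECs, 46.8, 219 and 191 in the Akt-RACVECs and 2.2, 113 and 3.75 in the Sox17-RACVECs. It had 122, 34.2 and 73.9 in the Akt-LECs, 87, 25.4 and 13 in the Akt-liver ECs and 6.75, 10.4 and 8.27 in the LSECs. All Akt-RACVECs were above all Akt-MACs, with a log2 fold change of 2.80 ± 1.06 (SE, adjusted p = 0.062) that was not called and that was 3.43 (adjusted p = 0.049) without Akt-MAC 3 and 3.51 (0.0441) without Akt-RACVEC 1. Adamts15 and Adamts20 were at or below 37.5 and 20.2, and Adamts8 was not tested.

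Of the genes that trim the ends of procollagens, Adamts2 was between 42.5 and 205 in the MACs and 191 in Akt-LEC 1, and it was at most 9.58 in the Akt-RACVECs and 1.36 in the Sox17-RACVECs. Adamts14 ranged from 0 to 79.4 over the 24 libraries, and Adamts3 from 0 to 5.25 without reaching the level for a test. None of them was called. Col1a1, a mesenchymal marker here, was 881, 1936 and 524 in the MACs, 19.2, 1.35 and 0.31 in the Akt-RACVECs, 92.3, 0.67 and 92.1 in the Sox17-RACVECs and 1065 in Akt-LEC 1.

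Among the other Adamts genes, Adamts17 was the one called higher in the converted cells with Akt. Adamts17 (chromosome 7 from 73984621 to 74297511) was at most 0.47 in MACs and Akt-MACs and 0 in all RACVECs, and it had 5.32, 2.39 and 97.6 in the Akt-RACVECs and 0, 34.1 and 0 in the Sox17-RACVECs. It had 0, 4.19 and 2.77 in the Akt-LECs, 0, 1.64 and 0.4 in the Akt-liver ECs and 0 in all LSECs. The log2 fold change of Akt-RACVECs against Akt-MACs was 3.54 ± 1.15 (SE, adjusted p = 0.033), and it was lost without any of the 3 Akt-MACs (adjusted p from 0.0732 to 0.0744) or without Akt-RACVEC 3 (0.175), which held most of the signal. Against RACVECs, the log2 fold change of Akt-RACVECs was 3.68 ± 1.15 (SE, adjusted p = 0.126) and was not called. Adamts7 (chromosome 9 from 90057816 to 90102909), which cleaves the cartilage protein Comp, had 9.71, 17.3 and 81.8 in the MACs, 38.9, 9.97 and 31.3 in the Akt-MACs, 29.1, 39.9 and 17.3 in the RACVECs, 15.8, 76.1 and 1.6 in the Akt-RACVECs and 39, 6.78 and 72.4 in the Sox17-RACVECs. It had 53.4, 5.99 and 49.3 in the Akt-LECs, 72.5, 148 and 36.7 in the Akt-liver ECs and 31.7, 37.4 and 35.4 in the LSECs, with no comparison called. Adamts10 and Adamts12 ranged from 0.49 to 41.1 and from 0.24 to 108, and Adamts6 from 0.51 to 5.7. Adamts13, the proteinase of von Willebrand factor, was not tested and was listed above 0 in the 3 LSECs only, at 1.26, 0.85 and 2.87. Adamts16 was above 0 in 5 libraries and Adamts18 and Adamts19 in 1 each.

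Of the inhibitors, Timp2 had the highest mean FPKM of all 45 genes. The FPKM of Timp2 (chromosome 11 from 118162383 to 118217054) was 13231, 2467 and 4354 in the MACs, 4308, 1728 and 6192 in the Akt-MACs and 1308, 907 and 2888 in the RACVECs. It was 1205, 336 and 1607 in the Akt-RACVECs and 1952, 2543 and 1842 in the Sox17-RACVECs. In the tissue ECs it was 871, 2277 and 1337 in the Akt-LECs, 719, 1323 and 1026 in the Akt-liver ECs and 100.4, 88.9 and 64.2 in the LSECs. The LSECs were below all other libraries. Akt-liver ECs exceeded them by a log2 fold change of 3.56 ± 0.64 (SE, adjusted p = 0.000318), a call kept under all 16 alternatives. MACs exceeded cultured ECs by 2.15 ± 0.55 (SE, adjusted p = 0.0113), and this call was lost without MAC 1 (adjusted p = 0.101), in which Timp2 made up 86.6% of the summed Timp FPKM. Akt-RACVECs were below Akt-MACs by a log2 fold change of -2.05 ± 0.64 (SE, adjusted p = 0.0266), which was lost without Akt-MAC 1, Akt-MAC 3 or Akt-RACVEC 2 (adjusted p = 0.0728, 0.106 and 0.149).

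The FPKM of Timp1 (chromosome X from 20447292 to 20451861) was 1344, 494 and 1561 in the MACs, 1872, 293 and 2045 in the Akt-MACs and 428, 1189 and 1366 in the RACVECs. It was 404, 193 and 132 in the Akt-RACVECs and 471, 162 and 874 in the Sox17-RACVECs. In lung and liver ECs it was 1957, 131 and 273 in the Akt-LECs, 1089, 175 and 128 in the Akt-liver ECs and 0, 2.18 and 8.73 in the LSECs. Timp1, a secreted inhibitor known for its rise in fibrosis, was thus above 100 in all cultured libraries and below 10 in the 3 LSECs. Here, the log2 fold change of Akt-liver ECs against LSECs was 6.54 ± 1.07 (SE, adjusted p = 0.000138), the largest of these genes in this comparison, and no single library decided it. The Akt-RACVECs were below all RACVECs, with a log2 fold change of -2.02 ± 1.07 (SE, adjusted p = 0.366) that was not called.

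Timp3 (chromosome 10 from 85763117 to 85812251), the inhibitor that binds to the matrix itself, had 679.5, 1901 and 819 in the MACs, 843, 1217 and 1351 in the Akt-MACs, 1219, 189 and 1420 in the RACVECs, 861, 501 and 2353 in the Akt-RACVECs and 1166, 1424 and 356 in the Sox17-RACVECs. It had 508, 1804 and 428 in the Akt-LECs, 711, 587 and 1104 in the Akt-liver ECs and 1823, 1384 and 1019 in the LSECs. No comparison called it, and the F test over 8 groups gave an adjusted p of 0.886. Timp3 made up between 93.3% and 94.8% of the summed Timp FPKM in the LSECs, against at most 57.5% in the other 21 libraries. Exons of Syn3 on the other strand cover 21.3% of the exon bases of Timp3. Timp4 (chromosome 6 from 115195634 to 115201867) had 23.9, 3.43 and 3.24 in the MACs and 1.91, 257 and 0 in the Akt-MACs, was 3.77 in RACVEC 1 and 0.72 in Akt-LEC 2, and was listed at 0 in the other 16 libraries outside the amniotic groups. All MACs were above all cultured ECs, with a log2 fold change of 2.83 ± 1.11 (SE, adjusted p = 0.0778) that was not called.

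**Figure D5:**
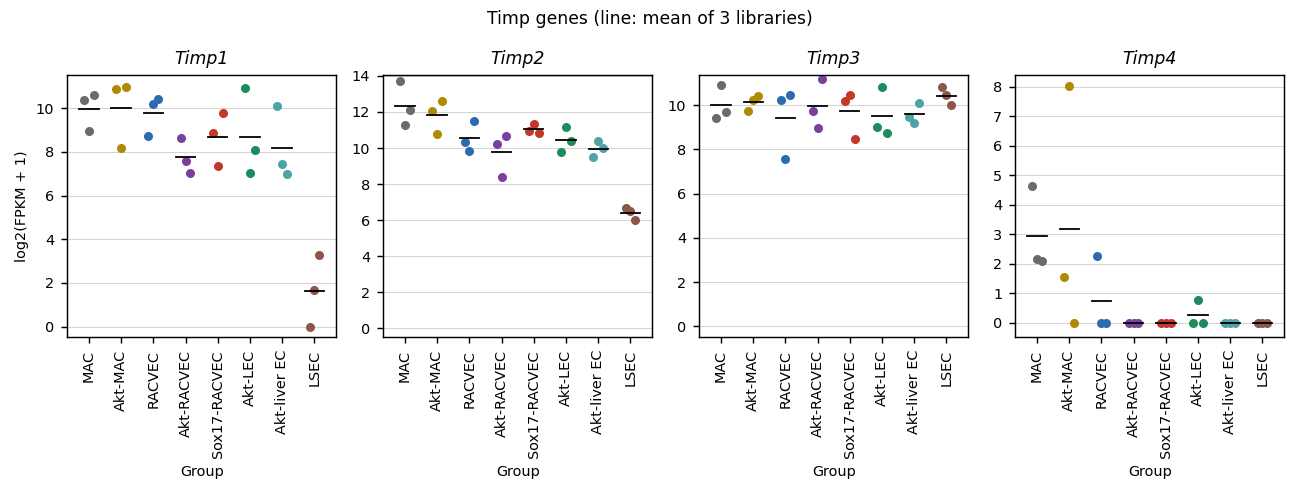
Log2(FPKM + 1) of Timp1 to Timp4 by group, with 1 point per library and a line at the mean of the 3 libraries. Timp1 and Timp2 lay lowest in the 3 LSECs, and Timp3 lay between 189 and 2353 FPKM in all 24 libraries.

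The genes around these proteinases were taken as a list of 22 that activate, inhibit or clear them, and all 22 were tested. In RACVECs against MACs (2.71% of all genes called in either direction), Akt-RACVECs against RACVECs (0.261%) and Sox17-RACVECs against RACVECs (0.00668%), 0 of the 22 were called. At such shares, 0 calls among 22 genes do not set this list apart. Akt-liver ECs exceeded LSECs in 9 and were lower in 1 (14.1% and 12.9% of all genes). Among those with the largest change were Pcsk6 (log2 fold change 7.24), a convertase that removes propeptides, Serpine2 (7.05), an inhibitor of serine proteinases, Thbs1 (6.87), which helps to clear Mmp2, Plat (5.71), which makes plasmin, and Plg (-5.64), plasminogen itself. Plg, which hepatocytes are known to make, was 35.1, 24.5 and 135 in the LSECs and 0 in all other libraries, and the hepatocyte markers of the LSECs moved with it. Akt-RACVECs exceeded Akt-MACs in Plau, the urokinase gene, and were lower in A2m, Lrp1 and Serpine2 (6.15% and 13.4% of all genes). MACs exceeded cultured ECs in Lrp1 and were lower in Pcsk6, Plau, Plaur and Tfpi2 (7.51% and 7.30% of all genes). With single libraries removed, Plau kept its call in both comparisons and Tfpi2 kept its own, whereas Lrp1 lost it in 5 of 6 and in 7 of 9 leave-outs, Serpine2 in 4 of 6, Pcsk6 in 6 of 9, A2m without Akt-MAC 2 and Plaur without MAC 2. Against LSECs, Reck alone lost its call, in 5 of 6. Of the 5 tested Adamts-like genes, which lack a proteinase domain, Adamtsl4 exceeded its LSEC level in Akt-liver ECs by a log2 fold change of 2.77 ± 0.67 (SE, adjusted p = 0.00382), which held without any single library. Adamtsl3 was higher in MACs than in cultured ECs by 2.18 ± 0.68 (SE, adjusted p = 0.032), a call lost without MAC 1, Akt-LEC 3 or Akt-liver EC 3 (adjusted p up to 0.278). Of the 3 tested hyalectan genes, Ncan, the gene of neurocan, was 25.9, 705 and 0.41 in the Akt-MACs and 0.3, 0 and 0 in the Akt-RACVECs. It was called lower in the Akt-RACVECs, with a log2 fold change of -4.78 ± 1.35 (SE, adjusted p = 0.0171), and the call was lost without Akt-MAC 2 (adjusted p = 0.0946). In the other comparisons between groups 0 of the 3 were called. The F test over 8 groups called Ncan and Vcan, the gene of versican (54.0% of all genes).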

How the data were processed

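RNA-seq was measured in 24 libraries, 3 in each of 8 groups taken from the sample titles. The authors aligned reads to mm9 with TopHat and computed FPKM per RefSeq transcript with Cufflinks, with upper-quartile scaling and bias correction per the study's methods, and deposited 27583 transcripts per library with 2 decimals. FPKM depend on how fragments are shared between similar transcripts and genes. Tool versions and fragment numbers were not given in the sources used here, so no interval for depth could be computed. The transcripts of a symbol were summed here. The 649 transcripts without a symbol were kept as entries of their own. This gave 22282 entries, all called genes here.

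The comparisons used limma (version 3.58.1, R version 4.3.3), with a mean-dependent trend, on log2(FPKM + 1) in 1 fit of 8 group means, two-sided, and p-values were adjusted by Benjamini-Hochberg over 14964 genes, those whose FPKM averaged 1 or more. A pseudocount of 1 understates changes of low genes. Python 3.11.15, numpy 2.4.6, pandas 2.3.3 and matplotlib 3.10.9 were used for the rest. Positions are those of the mm9 annotation.

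The genes and the marker and pathway lists were chosen with earlier results of these data known. Values in every library are given for the Timp genes, the genes called in any comparison, and the 5 Mmp and 5 Adamts genes with the highest mean FPKM. Mmp1a, Mmp1b, Mmp8 and Mmp10 were added as members of the cluster. Of the pathway genes, those among the 6 with the largest called change between Akt-liver ECs and LSECs are given with their values, except 1 that is not reported here. Alternatives were the pseudocount, the filter on low values, the scaling, the transcripts kept apart, only the groups compared, a replicate block, the criterion of the study's methods and leaving out each library.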

Additional observations from a re-analysis of the deposited data

Results flagged for a closer look

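In Mmp9 the added Akt went with opposite directions in amniotic and converted cells, with no overlap of libraries in either. The converted cells were low, with 12.4, 7.97 and 3.21 FPKM in the RACVECs and 0.7, 0 and 0 in the Akt-RACVECs. By limma, neither Akt-RACVECs against RACVECs (log2 fold change -2.74, adjusted p = 0.272) nor Akt-MACs against MACs (4.45, adjusted p = 0.0548) was called. Every Akt-MAC library was above every MAC library (10.7% of all genes did so). Every Akt-RACVEC library was below every RACVEC library (9.15% of all genes). Mmp9 was picked out by this pattern of non-overlap. The log2 fold change in RACVECs minus that in MACs was -7.19. The test of this difference with limma gave an adjusted p of 0.102, short of the threshold, and without Akt-MAC 1 the value was -8.43 with an adjusted p of 0.00628. The summed macrophage markers, which were 103, 4966 and 14366 FPKM in the Akt-MACs and at most 0.79 in the MACs, moved in the same direction as Mmp9 there, and their part was not tested. Fold changes of opposite sign were also seen in Mmp13 (3.89 in Akt-MACs against MACs and -4.99 in Akt-RACVECs against RACVECs on the log2 scale), where the MAC and Akt-MAC libraries overlapped and the adjusted p of the difference was 0.219.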

How the results depend on the processing

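Of the 19 called values, none changed direction in the 320 recomputed values, of which 228 kept the call and 92 lost it. The number of genes called in RACVECs against MACs was 0, with 1 by the criterion of the study's methods and 0 to 2 when each library was left out. For Akt-RACVECs against Akt-MACs it was 6, with 3 in a fit of only these groups, 0 by the study's criterion, 3 without Akt-MAC 2 and Akt-MAC 3 together, and 3 to 8 when each library was left out. For Akt-MACs against MACs it was 1, with 0 at a pseudocount of 0.1, 2 at a pseudocount of 10, 0 in a fit of only these groups, 0 by the study's criterion and 0 to 2 when each library was left out. For MACs against cultured ECs it was 6, with 2 in a fit of only these groups, 2 by the study's criterion, 11 without Akt-LEC 1 and Akt-liver EC 1 together, and 2 to 8 when each library was left out. For Akt-liver ECs against LSECs it was 6, with 3 by the study's criterion and 3 to 6 when each library was left out. For the difference of both Akt effects it was 0, with 1 (Adamts20) without Akt-MAC 2 and Akt-MAC 3 together and 0 to 1 when each library was left out. Same-numbered libraries did not deviate together in all 3 pairs of any comparison (correlations between -0.200 and 0.571). The highest were 0.571 and 0.366, for numbers 1 and 2 of the Akt-LECs with the Akt-liver ECs, and number 3 had -0.050. Whether single pairs had a common origin was not tested. With the replicate block, fitted to the compared groups alone, the numbers called were 0 for Akt-RACVECs against Akt-MACs, 0 for Akt-MACs against MACs, 1 for MACs against cultured ECs and 4 for Akt-liver ECs against LSECs. The fits without Akt-MAC 2 and 3, without Akt-LEC 1 and Akt-liver EC 1, and with 2 pairs as a block (RACVEC 1 with MAC 2 and RACVEC 2 with MAC 3, whose file headers share a number or the word later; run for RACVECs against MACs only, with 0 called), and the leave-outs of the pathway genes, were chosen after seeing the data. Fragment numbers are unknown, so what depth limits could not be computed, and 3 libraries a group limit what a comparison can call.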

Other observations

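The 2 RefSeq transcripts of Mmp19 differed between Akt-liver ECs and LSECs. NM_021412 was between 29.6 and 76.8 FPKM in Akt-liver ECs and between 0 and 4.03 in LSECs, whereas NM_001164197 was between 2.67 and 43.5 in Akt-liver ECs and between 2.8 and 36.95 in LSECs. The summed gene was not called in this comparison. The share of fragments that Cufflinks gives to each transcript is an estimate, and this pair was chosen after its values were seen.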
